A study of Mus musculus with 8 samples.

Results

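Levels of 9 T cell receptor genes and adaptors were followed on 8 microarrays of Ba/F3 cells: Tcrg, Cd3e, Cd3g, Cd247, Lck, Zap70, Lat, Lat2 and Lcp2. The set was put together because Tcrg and Lat had been seen to be higher in FLT3/ITD cells of these data. Their differences between FLT3/ITD and wild type cells are therefore given as a description without a test. Members were found by gene name in the scanner files, with a renamed gene matched to its current symbol. That gave 16 probes for the 9 genes, out of 35923 probes for 21707 named genes on the array.

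Ba/F3 is a mouse pro-B cell line whose growth depends on IL3. The cells expressed FLT3, a receptor tyrosine kinase of blood progenitors, either with an internal tandem duplication that makes it active on its own (FLT3/ITD) or in its wild type form. All cells had been maintained with 0.1 ng/ml IL3, then washed free of it and held for 4 h in 0.5% albumin medium. Cxcl12, the ligand of the chemokine receptor Cxcr4, was present at 100 ng/ml or left out. The 4 groups, with 2 arrays each, were FLT3/ITD, FLT3/ITD with Cxcl12, wild type FLT3, and wild type FLT3 with Cxcl12. The promoter of the transgenes and the number of clones are not given in the sources used here, nor is it stated whether the arrays of a group came from separate cultures, so the tests measure only the spread between these arrays.

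Each of 2 slides, called set 1 and set 2, held 1 array of every group at the same slide position. The FLT3/ITD cells of set 1 are labelled N51 and those of set 2 N78, so the duplication and the set cannot be told apart, nor can group and slide position. The scanner software called 49.2% to 55.0% of an array's probes well above background. Both duplications were compared with the wild type array of their own set. The array's Flt3 probe was well above background on all 4 arrays of set 2, at -4.50 and -3.56 in FLT3/ITD cells, against -3.86 and -4.11 in wild type cells, and on none of set 1. The species of the transgene is not given in the sources used here, so this probe does not check the labels. Of 11 pro-B cell markers, 4 were well above background on all 8 arrays (Cd79a, Cd79b, Vpreb1 and Dntt) and 5 on none, among them Pax5 and Ebf1.

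The T cell receptor is a pair of antigen-binding chains, alpha with beta or gamma with delta, carried to the surface by the CD3 chains and the zeta chain. These partners hold the tyrosine motifs (ITAMs) that the kinase Lck phosphorylates and the kinase Zap70 then binds. Zap70 in turn phosphorylates the membrane adaptor Lat and the cytosolic adaptor Lcp2 (SLP-76), on which enzymes of calcium and Ras signalling gather. Lat2 (NTAL, LAB) is the related membrane adaptor of B cells, mast cells and myeloid cells. Tcrg is the gamma chain, made from a locus of several variable segments and near-identical constant genes, so a Tcrg probe can also bind transcripts of a related copy.

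The Lat probe, another probe each of Lat2 and Cd247 that holds a motif of the pathway, and 2 Tcrg probes other than the brightest are shown, each 60 bases long, as deposited in the scanner files, with mm9 coordinates from set 2. Capitals mark, in Lat and Lat2, the codon pattern TAT or TAC, NNN, AAT or AAC in a reading frame without a stop codon. It encodes tyrosine, any residue and asparagine, the site by which phosphorylated adaptors bind Grb2 and Grap2. In Cd247 capitals mark the paired ITAM codons, each a tyrosine codon (TAT or TAC) followed, after NNNNNN, by a codon for leucine or isoleucine. A match is a description of the probe's letters. The first pattern lay in 2.87% of all 41174 probes and the paired pattern in 0.0777%. The Tcrg probes carry no capitals.
Lat, chr7:133507719-133507778, minus strand: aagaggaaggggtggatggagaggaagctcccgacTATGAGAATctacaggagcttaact
Lat2, exon-spanning probe, chr5:135080627-135081816, minus strand: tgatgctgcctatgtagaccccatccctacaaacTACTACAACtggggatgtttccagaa
Cd247, exon-spanning probe, chr1:167786567-167787585, plus strand: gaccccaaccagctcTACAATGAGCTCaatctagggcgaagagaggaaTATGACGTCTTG
Tcrg, exon-spanning probe, chr13:19397039-19399117, minus strand: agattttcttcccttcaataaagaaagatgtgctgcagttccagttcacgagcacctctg
Tcrg, variable segment probe, chr13:19334939-19334998, plus strand: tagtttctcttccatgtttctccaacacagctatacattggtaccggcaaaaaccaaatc

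Of the 9 members, 6 passed the filter, which asked for a probe that was well above background in all arrays of some group: Tcrg, Cd3e, Lck, Lat, Lat2 and Lcp2. Zap70, Cd3g and Cd247 did not. Levels below are log2 intensities relative to the array's own 75th percentile, so 0 is that percentile, and levels of different probes are not set against each other. A difference is FLT3/ITD minus wild type on that scale. Since the samples are bulk RNA, fewer cells that express a gene and less of its RNA per cell cannot be told apart.

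Tcrg and Lat were higher, and Lat2 lower, in FLT3/ITD cells within both sets. Lcp2 was slightly higher within both sets. Lck and Cd3e had average differences near 0. Over both duplications the 4 FLT3/ITD arrays lay above the 4 wild type arrays for 2 of the 6 members, Tcrg and Lat, against 3.26% of all 13672 features fitted, and below them for none, against 2.47%. Within each set separately 3 of the 6 (Tcrg, Lat and Lcp2) were higher without overlap, against 9.83% of features, and 1 (Lat2) was lower, against 9.88%. Over all features 3.61% were called higher and 2.6% lower in FLT3/ITD cells. The members were picked on this contrast, so nothing is read from these shares.

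**Figure D1:**
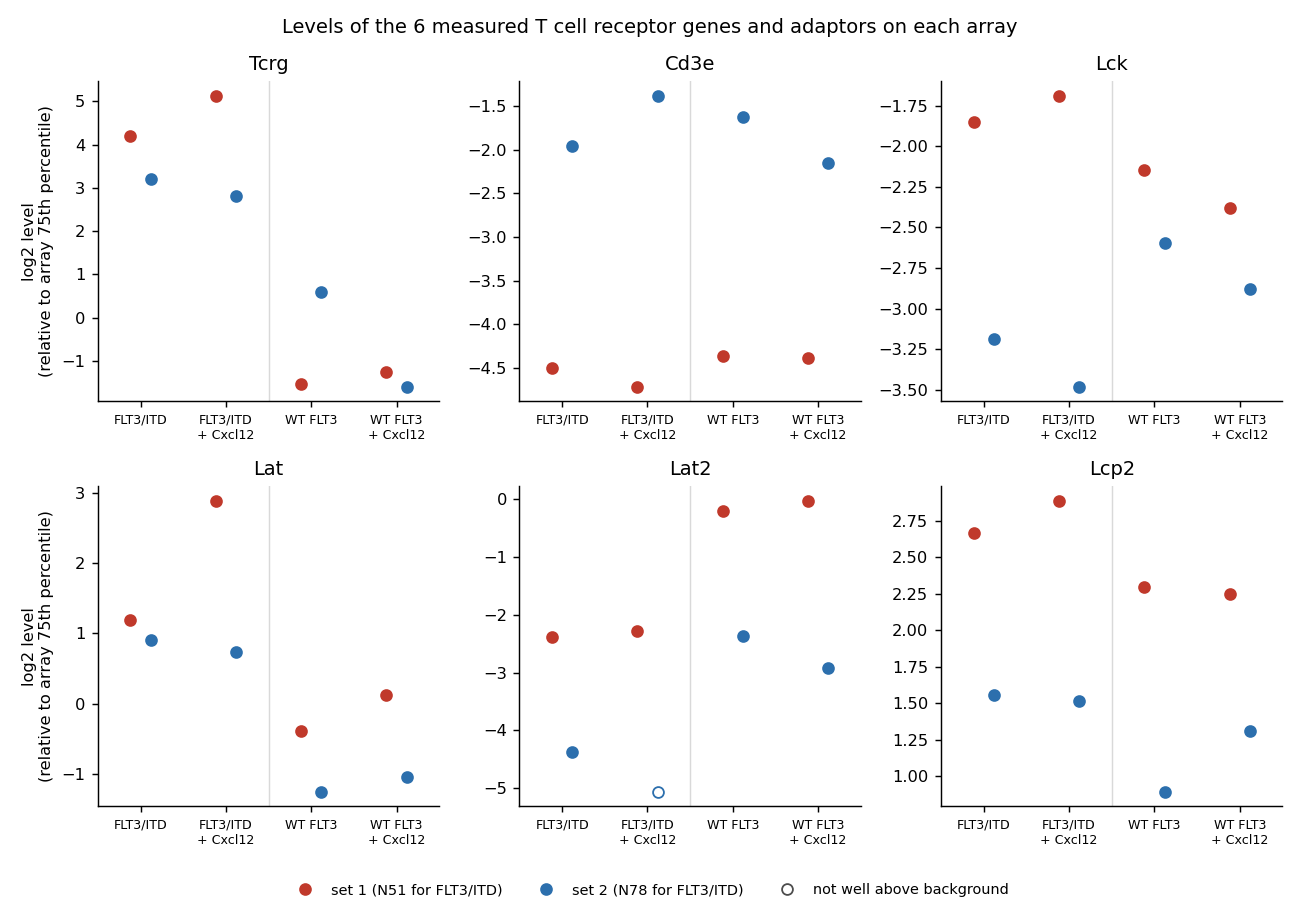
Log2 level relative to the array's 75th percentile (y axis) of the brightest probe of each of 6 members on every array, by group (x axis), 1 point per array with no error bars, red for set 1 and blue for set 2, open where not well above background. FLT3/ITD arrays lie above wild type ones for Tcrg and Lat, and below the wild type array of their own set for Lat2.

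On the brightest Tcrg probe, at chr13:19396875-19396934 on the minus strand, FLT3/ITD cells had levels of 4.20 in set 1 and 3.20 in set 2 without Cxcl12, and 5.13 and 2.80 with it. Wild type cells had -1.53 and 0.59 without Cxcl12, and -1.25 and -1.60 with it. The lowest FLT3/ITD array thus lay above the highest wild type array, which was that of set 2 without Cxcl12. The difference was 6.05 in set 1 (N51) and 3.50 in set 2 (N78), and 4.78 on average (SE 0.56), a 27.5-fold ratio. The exon-spanning Tcrg probe behaved alike, with FLT3/ITD levels of 0.44, 0.03, 1.30 and -0.35 against wild type levels of -5.48, -2.93, -5.14 and -5.41, in the same order of arrays. The last wild type value was not well above background.

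The variable segment probe, which the set 2 files describe as gamma variable 3, did not follow these probes in set 2. Its FLT3/ITD levels were -1.92 and -2.76 in set 1, against -3.41 and -3.86 for wild type. In set 2 they were -1.86 and -2.47, against -2.00 and -2.23, so the groups overlapped there. The difference was 1.29 with N51 and -0.06 with N78, and the difference between the sets was not tested.

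Other probes of the gamma locus are not named Tcrg in either set of files, or name another segment, and were looked at because of their position. A Tcrg-V2 probe was well above background only on the FLT3/ITD arrays of set 1, at -4.45 without and -3.11 with Cxcl12. The Tcrg-C probe, named for the constant region, had FLT3/ITD levels of 3.53 and 3.57 in set 1, against 2.32 and 2.70 for wild type, and of 2.11 and 1.97 in set 2, against 1.28 and 1.58. It was higher in both sets by 1.04 and 0.61, less than the brightest Tcrg probe in either. Stard3nl, the next named gene on that side, encodes a cholesterol-binding protein of late endosomes. It differed by -0.25 (SE 0.14, limma adjusted p = 0.298) and did not pass the test. Amph, on the other side, was well above background on 1 array.

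**Figure D2:**
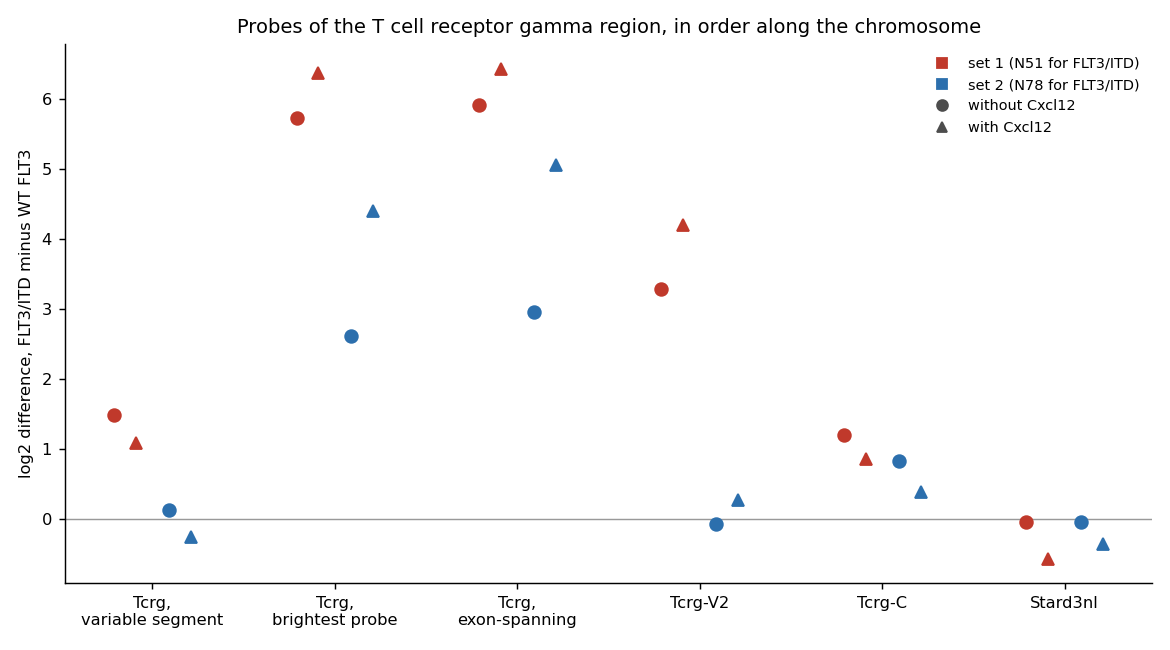
Log2 difference, FLT3/ITD minus wild type FLT3 (y axis), for probes of the gamma locus and Stard3nl in chromosome order (x axis), 1 point per pair of arrays of a set, red for set 1 and blue for set 2, circles without and triangles with Cxcl12. The brightest and the exon-spanning Tcrg probe lie highest in both sets, while the variable segment and Tcrg-V2 probes lie near 0 in set 2, where Tcrg-V2 was not above background.

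Of the CD3 and zeta chains among the members, which a T cell receptor needs at the surface, only Cd3e passed the filter. The brightest Cd3e probe had FLT3/ITD levels of -4.51 and -1.95 without Cxcl12 and -4.72 and -1.38 with it, against wild type levels of -4.37 and -1.63 without and -4.39 and -2.15 with it. The groups overlapped within set 2, and the sets lay further apart than the groups. This probe was well above background on all 8 arrays, and a second Cd3e probe on none. Cd3g was well above background on 2 of 8 arrays, both wild type in set 1, at -4.10 without and -4.65 with Cxcl12. Of 4 Cd247 probes, 1 was well above background on 3 arrays of set 1, at -4.37 in FLT3/ITD cells, against -4.33 in wild type cells without and -4.61 with Cxcl12. The Cd247 probe over the ITAM shown above was well above background on none.

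Of the receptor's kinases among the members, only Lck passed the filter. Zap70 was well above background on 1 array, FLT3/ITD without Cxcl12 in set 2, at -4.11. Lck was measured on all 8 arrays, and its difference had opposite signs in the sets. In set 1 its FLT3/ITD levels of -1.85 and -1.69 lay above the wild type levels of -2.14 and -2.38. In set 2 its FLT3/ITD levels of -3.19 and -3.48 lay below the wild type levels of -2.60 and -2.88. The average difference was -0.05 (SE 0.27).

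Among the adaptors, Lat had FLT3/ITD levels of 1.19 and 0.91 without Cxcl12 and 2.90 and 0.73 with it. Wild type levels were -0.39 and -1.26 without and 0.13 and -1.05 with Cxcl12. All FLT3/ITD arrays lay above all wild type arrays, and the FLT3/ITD array of set 1 with Cxcl12 stood highest. The difference was 2.18 in set 1 and 1.98 in set 2, and 2.08 on average (SE 0.27), a 4.22-fold ratio.

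Within 150000 bases of the Lat probe, none of 8 genes passed the test, namely Sbk1, Spns1, Nfatc2ip, Rabep2, Atp2a1, Sh2b1, Tufm and Atxn2l, with average differences from -0.05 to 0.49. Tufm, a mitochondrial elongation factor, had the highest of these and the lowest adjusted p (0.126, limma).

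**Figure D3:**
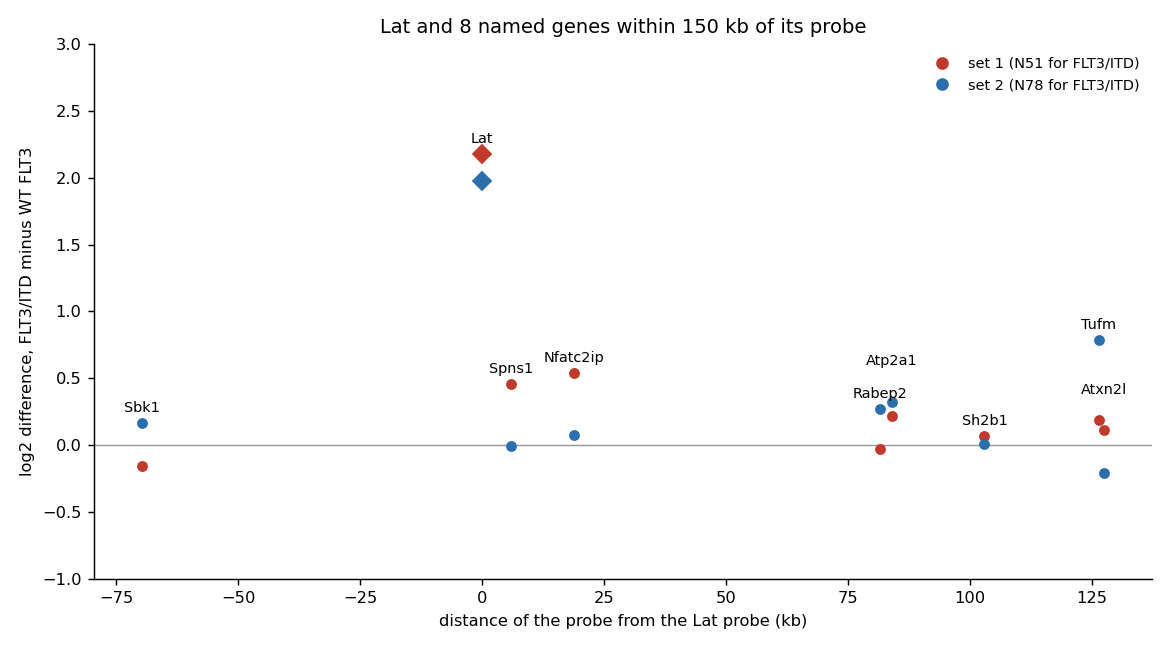
Log2 difference, FLT3/ITD minus wild type FLT3 averaged over Cxcl12 (y axis), against the distance of each gene's probe from the Lat probe in kb (x axis), red for set 1 and blue for set 2. Lat (diamonds) lies at 2.18 and 1.98, and the averages of the 8 neighbours shown lie between -0.05 and 0.49.

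Lat2 ran the other way. Its brightest probe, at chr5:135076329-135076388 on the minus strand, had FLT3/ITD levels of -2.39 and -4.38 without Cxcl12 and -2.28 and -5.06 with it, against wild type levels of -0.21 and -2.37 without and -0.02 and -2.91 with it. The -5.06 was not well above background. Each FLT3/ITD array lay below both wild type arrays of its set, with a difference of -2.22 in set 1 and -2.08 in set 2. The average difference was -2.15 (SE 0.22), with wild type cells 4.43-fold higher. The probe shown above followed in set 1, at -3.74 and -4.33 against -2.07 and -1.97. In set 2 its levels of -3.90 and -3.58 in FLT3/ITD cells differed little from -3.55 and -3.52 in wild type cells, so the probes of Lat2 disagreed there.

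Lcp2 had FLT3/ITD levels of 2.66 and 1.55 without Cxcl12 and 2.89 and 1.52 with it, against wild type levels of 2.30 and 0.89 without and 2.25 and 1.31 with it. The difference was 0.50 in set 1 and 0.43 in set 2, a 1.38-fold ratio on average.

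The difference with Cxcl12 was not used to choose the members and was tested. No member passed the test, in the average over both kinds of cells or in the interaction, which asks whether Cxcl12 acts differently in FLT3/ITD cells. Over all features 0.388% passed for the average Cxcl12 difference (0.154% higher and 0.234% lower with Cxcl12) and 0% for the interaction, where 235 features had an unadjusted limma p under 0.05. For the average Cxcl12 difference 2027 of the 13672 features had an unadjusted limma p under 0.05. None of the 6 members reached that unadjusted level in either comparison, and with so few members nothing is read from this. The average differences were -0.34 for Tcrg (SE 0.56, limma adjusted p = 0.832), 0.56 for Lat (SE 0.27, adjusted p = 0.377) and -0.23 for Lat2 (SE 0.22, adjusted p = 0.694). Those of Lcp2, Cd3e and Lck lay between -0.16 and 0.14.

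The widest spread was in Tcrg and Lat. In wild type cells of set 2, Tcrg was lower with Cxcl12 than without by 2.19, while in set 1 it was higher by 0.28. In FLT3/ITD cells Lat was higher with Cxcl12 by 1.70 in set 1 and differed by -0.17 in set 2. The sets thus gave opposite signs in both cases. The interaction was 1.21 for Tcrg (SE 1.12) and 0.40 for Lat (SE 0.54).

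**Figure D4:**
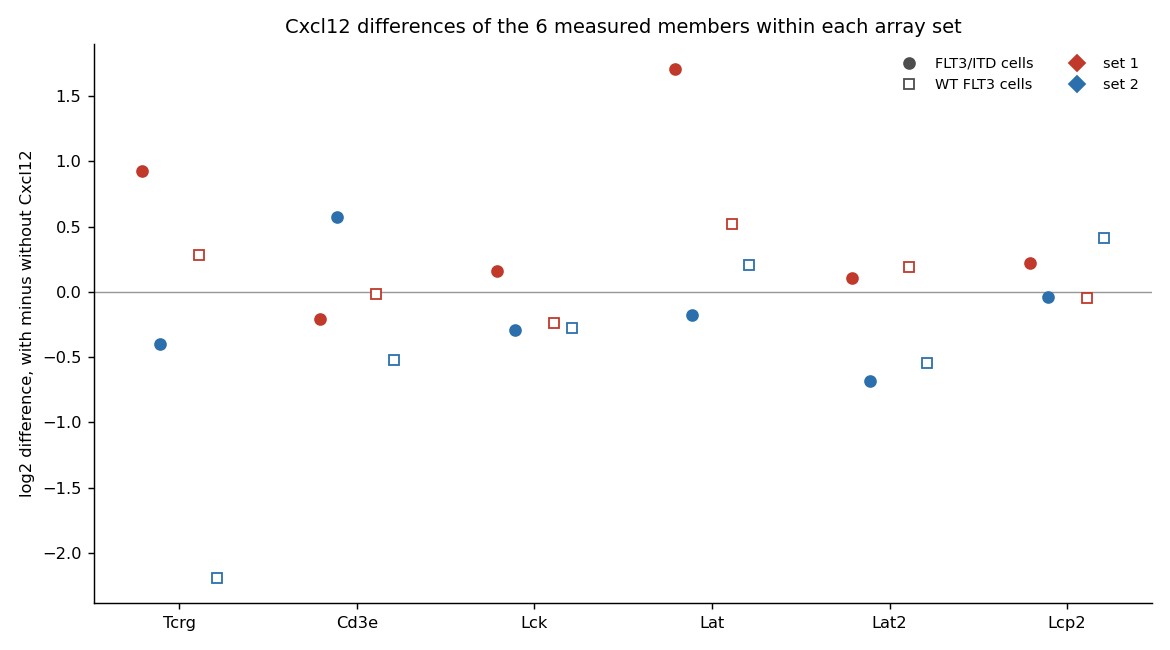
Log2 difference, with minus without Cxcl12 (y axis), for 6 members (x axis), 1 point per pair of arrays, filled circles for FLT3/ITD cells and open squares for wild type FLT3 cells, red for set 1 and blue for set 2. The points scatter on both sides of 0, from 1.70 for Lat in FLT3/ITD cells of set 1 to -2.19 for Tcrg in wild type cells of set 2.

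Of 109 other genes of T cell receptor signalling in 7 lists, 77 were measured. In FLT3/ITD cells 6 rose and 2 fell, 10.4% of those measured, against 6.22% of all features. The median difference of the 77 was -0.08, and that of all features -0.01. With Cxcl12 none of the 77 passed the test in the average. The samples of these tests are those on which the members were chosen, so the lists are no independent evidence on the members.

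In the adaptor list 3 of 20 measured genes rose and 1 fell. Sla2, an adaptor that dampens antigen receptor signalling, had levels of 1.79 and 2.24 without Cxcl12 and 2.46 and 2.59 with it in FLT3/ITD cells, against -0.37 and 0.37 without and -0.08 and 0.84 with it in wild type cells. The groups did not overlap, and the difference was 2.09 (SE 0.18, limma adjusted p = 0.000501). Dok2, a docking protein that restrains Ras signalling, had 5.24, 4.88, 5.93 and 4.78 in FLT3/ITD cells in the same order, against 4.11, 3.65, 4.04 and 3.59 in wild type cells. It rose by 1.36 (SE 0.16, adjusted p = 0.00356), again without overlap. Grap2 (Gads), which links Lat to Lcp2, rose by 1.57 (SE 0.35, adjusted p = 0.0358). Its FLT3/ITD levels were -1.47 and -1.32 in set 1, against -3.89 and -3.33, and -3.93 and -3.83 in set 2, against -5.83 and -3.78. The array at -5.83 was not well above background, and the groups of set 2 overlapped. Gab3, a scaffold adaptor of cytokine receptor signalling, fell by 1.16 (adjusted p = 0.0303). Grb2, which binds the asparagine motif shown above, had a difference of -0.06 and Vav1, an exchange factor that joins the Lat complex, -0.20, and neither passed.

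Among 13 measured kinases and phosphatases 1 rose and none fell: Ubash3a, a T cell regulator of the Sts family, by 0.92 (SE 0.18, adjusted p = 0.0258). Fyn, a Src family kinase, had a difference of -0.49 and did not pass. Among 7 measured receptor chains and coreceptors 1 fell, Ptprc (CD45), the phosphatase that activates Src kinases, by 0.55 (adjusted p = 0.0413). The CD3 delta chain Cd3d differed by 0.36 (adjusted p = 0.28) and Tcra by -0.79 (adjusted p = 0.0951). Of the genes that assemble antigen receptor genes, 2 of 10 measured rose, both subunits of the Ku complex that binds broken DNA ends. Xrcc5 rose by 1.13 (adjusted p = 0.0332) and Xrcc6 by 0.77 (adjusted p = 0.0345). Prkdc, the kinase that joins Ku, differed by 0.04 and Dntt, which adds bases at the joints, by -0.07. The recombinase genes Rag1 and Rag2 were well above background on no array.

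None of the 17 measured downstream genes, 6 ITAM chains of other receptors and 4 T lineage transcription factors passed the test. Plcg1 differed by -0.04, Nfatc1 by -0.62 (limma adjusted p = 0.0812), Fcer1g by -0.02, Cd79b by 0.25, Runx3 by -0.39 and Notch1 by -0.50. Of the 8 calls, those of Sla2 and Dok2 held in every alternative except the fit without the slide block. The others, Grap2, Gab3, Ubash3a, Ptprc, Xrcc5 and Xrcc6, were lost in 8 to 11 of 14 alternatives each. With normexp background correction the difference was 0.29 for Grap2 (adjusted p = 0.682), 0.33 for Ubash3a (0.587) and -0.16 for Ptprc (0.84). That correction also moved set 2 differences of other probes. It took Rag1, well above background on no array, from 0.09 to -1.84. Grb2, at levels of 4.81 to 5.06 in set 2, went from -0.05 to 0.79. The part of such shifts in the lost calls was not tested.

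**Figure D5:**
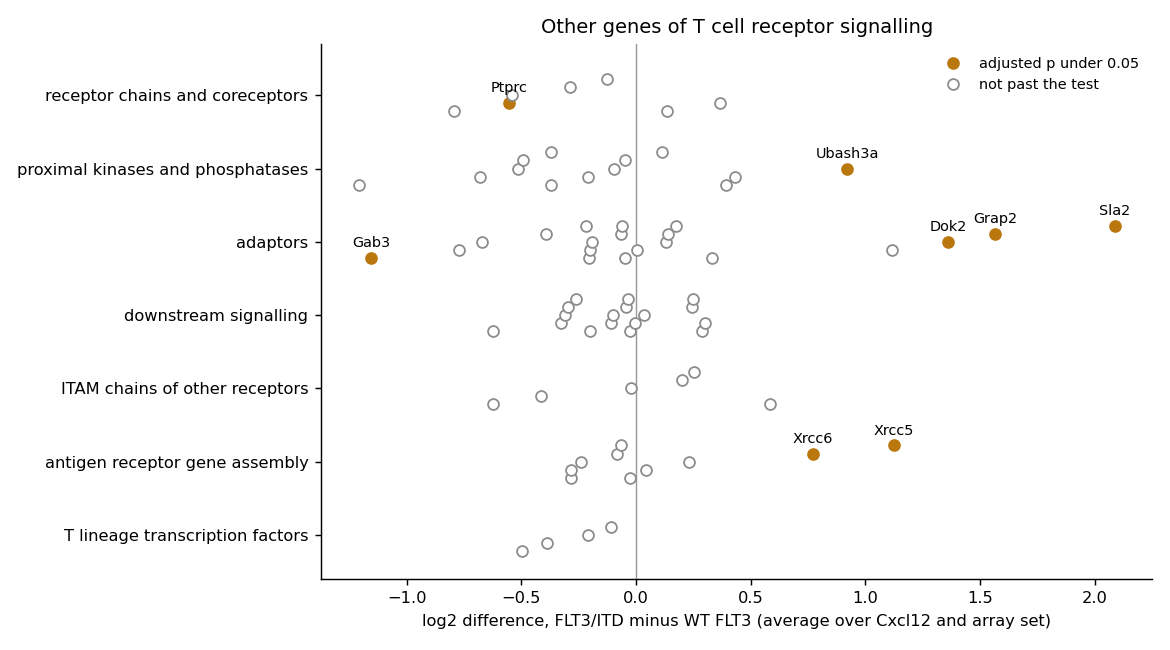
Average log2 difference, FLT3/ITD minus wild type FLT3 (x axis), of the 77 measured genes of 7 lists (y axis), 1 point per gene with a vertical offset to separate them, orange where the limma adjusted p was under 0.05. The 8 orange points run from -1.16 (Gab3) to 2.09 (Sla2), and most others lie near 0.

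Markers of other cell types were read beside the members. Of 11 T cell markers 6 were well above background on no array (Cd8a, Cd8b1, Cd28, Thy1, Il7r and Trat1). Only 4 passed the filter, and none of these passed the test. Their summed level, in multiples of the array's 75th percentile, ranged from 0.439 to 0.800 on FLT3/ITD arrays, against 0.469 to 0.779 on wild type arrays. Of 10 NK cell markers 7 were well above background on no array. Their sum ranged from 1.26 to 29.5 on FLT3/ITD arrays, against 2.05 to 9.55 on wild type arrays, and Gzmb made up most of the high values. Of 9 mast cell and basophil markers 7 passed the filter and 3 fell, against 2.6% of all features. These were Mcpt8 by 4.40 (adjusted p = 0.000159), Mcpt4 by 3.30 (adjusted p = 0.000466) and Cma1 by 2.90 (adjusted p = 0.000501). Another 2 were well above background on no array, among them Kit. Cpa3, Fcer1a, Ms4a2 and Hdc did not pass the test. The sum of the 9 markers was 14.7 to 57.0, against 159 to 252, and Cma1 made up most of it on every array. Of 7 platelet and megakaryocyte markers, a lineage that also uses Lat and Lcp2, 5 passed the filter and 3 rose, against 3.61% of all features. Among the 3 were Gp9 by 1.34 (adjusted p = 0.0231) and Gp1ba by 0.89 (adjusted p = 0.0263). Gp1bb differed by -0.08 (limma adjusted p = 0.893) and Itga2b by 1.20 (limma adjusted p = 0.0679), and neither passed. Pf4 and Ppbp did not pass the filter. Pf4 was higher by 5.22 in set 1 and not well above background in set 2. The call of Gp9 was lost in 7 of 14 alternatives and that of Gp1ba in 8, while those of Mcpt8, Mcpt4 and Cma1 were lost only without the slide block. The sum of the platelet and megakaryocyte markers was 9.87 to 17.8, against 2.45 to 9.32, and Itga2b made up most of it in set 2. The part of these markers in the differences of Lat, Lat2 and Tcrg was not tested.

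The genes whose levels were most like those of Tcrg over the 8 arrays, after the mean of each set was taken off, were Them6 (Pearson r = 0.99), Ergic1 (0.986), Dkkl1 (0.985), Msh5 (0.985) and Pim1 (0.985), a survival kinase gene induced by cytokine receptors. Pim1 differed by 3.11 in set 1 and 1.84 in set 2. Those most like Lat were Bin1 (0.994), Snrpa, 2610318N02Rik, Txnrd3 and Srm (0.991 each), where Srm encodes spermidine synthase. Srm differed by 1.82 in set 1 and 1.55 in set 2. The points share 2 slides and 4 groups, and the r values are a description.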

How the data were processed

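Total RNA of 8 samples was hybridised to Agilent mouse arrays, 1 dye (Cy3) per array. Per the file headers, the authors' deposited processed intensity values were background-subtracted by Agilent Feature Extraction (9.5.1.1 in set 1, 10.7.3.1 in set 2). The authors' deposited tables of normalized intensity, put on the log2 scale, served as an alternative.

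Here the values were put on the log2 scale and centred on the 75th percentile of their array (intensity 367 to 1109). Outlier spots were set to missing, spots of a probe averaged, and probes kept that were well above background throughout some group (21126 of 41174). The brightest kept probe stood for its gene. This left 13672 features, 12243 of them named genes, after 77 probes with a missing spot were dropped. Probe positions (mm9) were read from set 2.

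All arrays were fitted with limma 3.58.1 (R 4.3.3), with 4 group means, the slide as block and an intensity trend, which left 3 residual degrees of freedom. Arrays are paired by the slide that the headers name, and deviations from group means of arrays of a slide correlated at 0.731 to 0.88. The threshold was an adjusted p of 0.05 (Benjamini-Hochberg). The number of arrays limits the precision. For an FLT3/ITD difference, arrays with and without Cxcl12 of one label count separately. Its SE and p can therefore understate the spread between N51 and N78. The fit was tested on simulated data. Members and lists were chosen with earlier results of these data known. Pathway genes named are those past the test, up to 4 per list, and up to 2 well known others. Genes like Tcrg and Lat are the 5 with the highest correlation, and neighbours lie within 150000 bases. Other locus probes, Pax5, Ebf1 and the like were named after their values were seen. A few genes counted in the lists are left unnamed and not reported here.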

Additional observations from a re-analysis of the deposited data

Results flagged for a closer look

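Because each group holds 2 arrays, no array was tested for standing apart from its group. Only the members and other named genes were searched for the patterns below. The share of all features that show them was not counted, so nothing is read from the number found. Some of these genes differed in opposite directions with N51 and N78 on every pair of arrays. These differences between the duplications, some of them small, were not tested. Lck, FLT3/ITD minus wild type, was 0.49 with N51 in set 1 and -0.60 with N78 in set 2. Gzmb, a granule protease gene, was 1.91 with N51 and -2.98 with N78. Nkg7, a granule membrane protein gene, was -0.84 with N51 and 2.45 with N78. Cd79b was -0.077 with N51 and 0.59 with N78. Plcg1 was -0.41 with N51 and 0.33 with N78. The duplication and the array set cannot be told apart.

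Some of the genes searched moved in opposite directions with Cxcl12 in the 2 kinds of cells on both sets, again without a share over all features. Cd3d was higher with Cxcl12 by 0.25 in FLT3/ITD cells and differed by -0.17 in wild type cells. Gzmb differed by -0.036 in FLT3/ITD cells and 0.57 in wild type cells. Mcpt4 differed by -0.69 in FLT3/ITD cells and 0.41 in wild type cells. No gene passed the test of the interaction.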

How the results depend on the processing

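Among 13672 features, 850 passed for the average ITD difference, 53 for Cxcl12 and 0 for the interaction, with 8 and 0 pathway genes for the averages. With normexp background correction these were 361, 84, 6, 4 and 0. With quantile normalization 31 features passed for Cxcl12. With no filter on dim probes 183 passed for ITD and 0 for Cxcl12, and 2 pathway genes. With no replicate block (no slide term) 0 passed in the first, second and pathway ITD counts, where 713 and 308 had an unadjusted limma p under 0.05. Leaving out 1 array each, the ITD count was 153 to 916, the Cxcl12 count 0 to 214, the interaction count 0 to 22 and the pathway ITD count 2 to 6. The lowest ITD count came without the wild type array with Cxcl12 of set 2, and the highest Cxcl12 and interaction counts without the FLT3/ITD array with Cxcl12 of set 2.

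The ITD differences of Tcrg, Lat, Lat2 and Lcp2 kept their signs in all 14 alternatives, at 3.50 to 5.62, 1.67 to 2.42, -2.30 to -1.63 and 0.38 to 0.62. Of these 14, the fits without the slide term or the filter left the values unchanged, and the authors' tables nearly so. They therefore add little to the count. All 14 reuse the arrays on which the members were chosen, so the kept signs are a description. The ITD differences of Cd3e (-0.36 to 0.20) and Lck (-0.45 to 0.21), near 0 and not tested, took both signs. The other signs that turned were of differences that did not pass the test. With normexp the Cxcl12 difference was 0.29 for Cd3e, 0.36 for Lck, 0.36 for Lat2 and -0.10 for Lcp2, and the interaction was -0.29 for Cd3e, -0.70 for Lck and 0.22 for Lcp2. With quantile normalization the Cxcl12 difference of Cd3e was 0.0071. Leaving out 1 array each, the Cxcl12 difference was -1.18 to 0.49 for Tcrg, -0.25 to 0.16 for Cd3e, -0.42 to 0.096 for Lck, and the interaction was -0.46 to 2.89 for Tcrg, -0.32 to 0.71 for Lck, -0.29 to 1.096 for Lat, -0.42 to 0.20 for Lat2, -0.27 to 0.085 for Lcp2. Among other genes that did not pass, the ITD difference over these fits was -0.24 to 0.16 for Plcg1, -0.14 to 0.096 for Fcer1g, -0.28 to 0.14 for Dntt, -0.029 to 0.12 for Prkdc, -1.41 to 0.34 for Gzmb, -0.051 to 1.65 for Nkg7. With normexp it was -0.20 for Cd3d, 0.35 for Grb2, 0.21 for Vav1, 0.092 for Plcg1, 0.41 for Fcer1g and 0.031 for Stard3nl. It was 0.041 for Plcg1 with the mean of a gene's probes and 0.081 for Dntt with quantile normalization. The cause of these changes was not tested. The adjusted p of the members stayed above 0.05 in every alternative, from 0.0783 (Lat, Cxcl12) upward, and dim probes limit what Zap70, Cd3g and Cd247 can show.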
